A study of Homo sapiens with 2 samples.

Results

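BMP4-high cells were OVCAR5 tumour cells, a human ovarian carcinoma line, chosen by BMP4 itself: each carried at least 3 unique molecular identifiers (UMIs, each counted as 1 RNA molecule) of the BMP4 transcript. They were taken from 5 hashed samples of a single 10x Genomics 3' gene expression pool. A hashed sample is the set of cells that carry the same pair of antibody-borne hashtags. Of 5269 deposited barcodes, 3269 had at least 1000 genes, at least 5000 UMIs and at most 20% mitochondrial UMIs, and 2928 of these had a clear hashtag pair in 1 of 15 hashed samples. The 5 hashed samples held 892 cells, of which 290 were BMP4-high, 347 had 0 BMP4 UMIs (BMP4-zero) and 255 had 1 or 2. BMP4-high cells were compared with BMP4-zero cells of the same hashed sample, after each cell had been thinned at random to 5000 UMIs. Levels are counts per 10000 UMIs after thinning unless stated otherwise.

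Per the labels, the pool held tumour cells of 5 tumours grown in NSG-b2m-/- mice, an immunodeficient strain. All cells carried an IFNy-sensing reporter and were sorted as CFP+ cells, called bystander cells by the submitters. The cells had been cultured for 6 h unstimulated, with 10 ng/ml TNF, or with 100 ng/ml IFNy plus 10 ng/ml TNF, and each of these 3 conditions is listed 5 times. No label ties a hashtag pair to a condition or a tumour, so the hashed samples are named here by their tags. The 5 used here, HTO2+HTO5, HTO2+HTO8, HTO3+HTO7, HTO4+HTO7 and HTO4+HTO10, had been picked in earlier work for low levels of cytokine response genes, and values per hashed sample follow this order throughout. Both classes of cells come from the same hashed samples, the same sort and the same library. The p-values weigh the difference between the classes against the spread of that difference over the hashed samples, which may be technical.

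BMP4 is a secreted ligand of the bone morphogenetic protein family. It binds type I and type II serine/threonine kinase receptors, which phosphorylate the transcription factors SMAD1, SMAD5 and SMAD9. The best known target genes encode the ID proteins, inhibitors of helix-loop-helix factors, and secreted antagonists such as noggin and follistatin limit the signal. BMP4 is expressed by normal ovarian surface epithelium and by ovarian carcinoma cells in culture. BDNF, the second gene named with the class, encodes brain-derived neurotrophic factor, a secreted ligand of the receptor kinase NTRK2.

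Epithelial genes were expressed, as the label of tumour epithelium implies, and mesenchymal genes were expressed beside them. Of 15 epithelial markers, KRT8, KRT18, KRT19, KRT7 and EPCAM were abundant, and the list summed to 80.4 to 97.7 counts per 10000 UMIs in BMP4-high cells, against 58.6 to 85.8 in BMP4-zero cells. CDH1, the adhesion molecule E-cadherin, was nearly absent, with 15 deposited counts in BMP4-high and 9 in BMP4-zero cells. MUC16, MSLN and MUC1 were low as well, with 6, 34 and 44 deposited counts in BMP4-high and 5, 32 and 28 in BMP4-zero cells. The mesenchymal list summed to 22.4 to 34.2 in BMP4-high and 26.1 to 39.6 in BMP4-zero cells. Its most abundant member, VIM, had 6515 deposited counts in BMP4-high and 7692 in BMP4-zero cells. No marker of T or NK cells, B cells or erythroid cells had a single thinned count in either class. The 9 fibroblast markers together summed to at most 0.103 in BMP4-high cells and 0.0741 in BMP4-zero cells. The endothelial list summed to 0.615 to 0.923 in BMP4-high and 0.333 to 0.741 in BMP4-zero cells. The neural list summed to 0.318 to 0.769 in BMP4-high and 0.238 to 0.596 in BMP4-zero cells. The myeloid list summed to 0.308 to 0.682 in BMP4-high and 0.333 to 0.849 in BMP4-zero cells. Their members with the most counts were EGFL7, TUBB3 and CD68. None of the 8 lists of other cell types had a member that passed the test described below. The gene list of the matrix is human, so mouse cells were not looked for.

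The classification by BMP4 is a description, since BMP4 chose the cells. The median BMP4-high cell had 4 BMP4 UMIs, the highest had 24, and 28 cells had at least 10. BMP4-high cells made up 32.5% of the cells of the 5 hashed samples and held 82.0% of their 1982 BMP4 counts. Just inside the threshold, the 86 cells with 3 BMP4 UMIs had a median of 12315 UMIs per cell, and just outside it the 101 cells with 2 had a median of 11621. BMP4 counts were more uneven across cells than those of most genes. After thinning, the variance of BMP4 over the 892 cells was 2.24 times its mean, against a median ratio of 1.07 over 5386 genes with a mean of 0.1 to 10, of which 135 had a ratio above that of BMP4.

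The share of BMP4-high cells was 36.2%, 28.5%, 19.7%, 34.9% and 32.6% in the 5 hashed samples, with exact binomial 95% intervals that overlapped. HTO3+HTO7 had the fewest, 13 of 66 cells, and its interval ran from 10.9% to 31.3%. In the 10 other hashed samples the share of cells with at least 3 BMP4 UMIs ranged over single values of 0% to 11.7%. The lowest BMP4 level of the pool was in HTO4+HTO9, where 1 of 59 cells had a single BMP4 UMI, at a median depth of 11880 UMIs. RNA free in the suspension was not measured, and no cell type that lacks BMP4 was in the pool to measure it. Whether it reached the droplets of all hashed samples alike was not tested. Intervals cover counting error only.

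**Figure D1:**
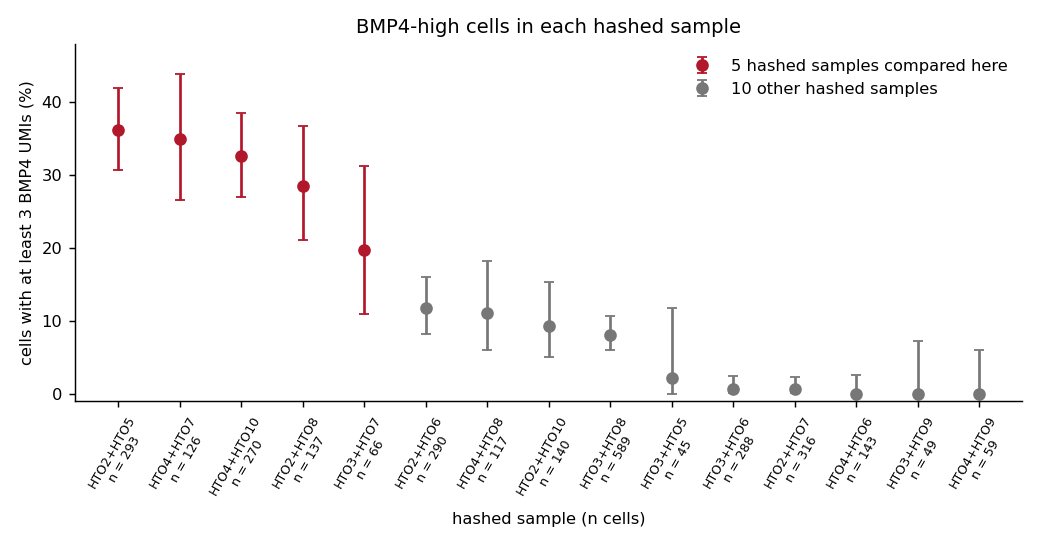
Share of cells with at least 3 BMP4 UMIs (%, y axis) in each of the 15 hashed samples (x axis, with the number of cells); bars are exact binomial 95% intervals. The 5 hashed samples compared here lie between 19.7% and 36.2% and the 10 others between 0% and 11.7%; no label gives the condition of any of them.

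The BMP4 transcript was also read in molecules that had not set the class. Each cell's counts were split at random into 2 parts, the class was set on the first part (at least 2 against 0 BMP4 UMIs), and BMP4 was measured in the second. In the second part the level was 3.51, 3.03, 5.17, 2.81 and 3.08 per 10000 UMIs in cells high in the first part, against 0.572, 0.270, 0.381, 0.712 and 0.811 in cells at 0 in the first part. The ratio was between 3.80 and 13.6, and the 2 sets of levels did not overlap. Another random split gave ratios of 4.19 to 7.40, with HTO3+HTO7, the highest in the first split, now the lowest at 4.19. Cells with 0 BMP4 UMIs in the first part were not free of BMP4 in the second, so BMP4-zero names a count and not an absence of the transcript.

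The 2 classes differed in depth and in quality measures before thinning. BMP4-high cells had a median of 13314 UMIs and BMP4-zero cells 10965, and the direction was the same in all 5 hashed samples. At 5000 UMIs per cell the median number of genes was 2040 in BMP4-high and 1968 in BMP4-zero cells. The median mitochondrial share was 12.9% in BMP4-high and 13.6% in BMP4-zero cells. Cells with at least 4 summed S and G2/M phase counts after thinning made up 25.2% of BMP4-high and 21.9% of BMP4-zero cells. This cut was set at the top 20% with ties kept. The share was lower in BMP4-high cells in HTO2+HTO5 (20.8% against 26.4%) and HTO3+HTO7 (15.4% against 22.2%), and higher in the other hashed samples. No gene of the S phase list (12 tested) or of the G2 and M phase list (10 tested) passed the test. Doublets of cells of the same hashed sample were not detected by the hashtags and were not removed.

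For all genes, thinned counts were summed per hashed sample and class, and the 10 sums were tested with edgeR's quasi-likelihood test with hashed sample as a block. Of 6222 genes tested, BMP4 left out, 14 were higher in BMP4-high cells (0.225% of genes tested) and 74 were lower (1.19%) at a Benjamini-Hochberg adjusted p under 0.05. These shares of 0.225% and 1.19% are the background for the calls within every gene list below. The median log2 difference over all genes was 0.00. Without scaling beyond the library size the split was 30 higher and 46 lower. DESeq2 called 1 higher and 17 lower, all 18 among the 88. With cells of the 2 classes matched on depth before thinning, 12 genes were higher and 50 lower. Of the 14 higher genes 12 were tested there and 8 called again. Of the 74 lower genes 68 were tested there and 42 called again. The test weighs the difference between the classes against its spread over the hashed samples, so genes with like differences pass more easily. A gene could still pass without the same sign in every hashed sample, as SOX4 did. The following counts describe the called genes and are no separate support. The share of all genes with the same sign in every hashed sample is not given. The difference had the same sign in 5 of 5 hashed samples for 12 of the 14 higher and 51 of the 74 lower genes, and the 5 BMP4-high levels did not overlap the 5 BMP4-zero levels for 6 and 21 of them, against 1.8% of all genes tested.

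The genes called higher included AQP3, SOX4 and KRT19, and those called lower included 7 of the 9 tested genes on the list for unfolded protein and amino acid stress. BDNF is included in the 14 and in counts drawn from them. It was known beforehand to go with BMP4, so its call is no test result. Of the other genes called higher, AQP3 and SOX4 were called again whichever hashed sample was left out. Of 39 genes named in the text as lower, IFIT2 not counted, 17 were called again in all 5 such fits, among them HSPA5, DDIT3, HERPUD1, JUN and CXCL8.

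BDNF lies on chromosome 11, from 27654893 to 27722058 on the minus strand, and BMP4 on chromosome 14, from 53949736 to 53958761 on the minus strand (GRCh38, GENCODE 29). BDNF is given as a description without a test, since BDNF was already known to go with BMP4 in these data. Its level was 1.09, 1.03, 0.769, 0.682 and 0.614 in BMP4-high cells, against 0.377, 0.242, 0.296, 0.340 and 0.297 in BMP4-zero cells. The lowest BMP4-high level lay above the highest BMP4-zero level, and the log2 difference was 1.35 ± 0.23 (SE). After thinning, 30.3% of BMP4-high cells had a BDNF UMI (exact 95% interval 25.1 to 36.0%), against 13.3% of BMP4-zero cells (9.87 to 17.3%). At full depth the shares were 53.1% of BMP4-high and 24.2% of BMP4-zero cells. BDNF-AS, the antisense gene that overlaps BDNF, had 17 counts in BMP4-high and 17 in BMP4-zero cells, while BDNF had 341 in BMP4-high and 123 in BMP4-zero cells.

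As a description of pooled cells, BDNF was lowest with 0 BMP4 UMIs and highest with 5 or more. It was at 0.317 in cells with 0 BMP4 UMIs, 0.532 with 1, 0.653 with 2, 0.726 with 3 or 4, and 1.00 with 5 or more. With exactly 3 it was at 0.651, no higher than with 2. The Poisson 95% interval with 5 or more (0.782 to 1.26) lay above that with 0 (0.239 to 0.413), and those of neighbouring steps overlapped. Within the BMP4-high cells, the 88 with a BDNF UMI had a thinned BMP4 level of 4.57 and the 202 without had 3.76, at median depths of 13536 and 13151 UMIs. The other 14 genes of the neurotrophin list were too low to be tested. Among them NTF3 and NTRK3 had 0 deposited counts in both classes, and NTRK2, the BDNF receptor, had 5 in BMP4-high and 2 in BMP4-zero cells.

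**Figure D2:**
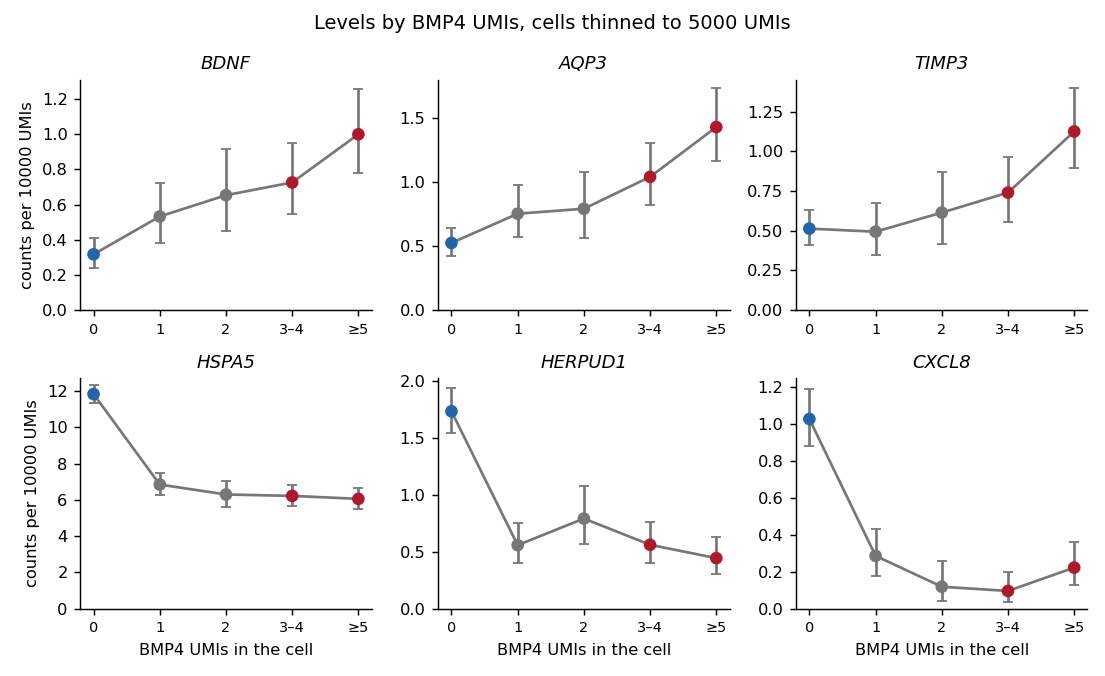
Level (counts per 10000 UMIs, cells thinned to 5000 UMIs, y axis) of 6 genes by the number of BMP4 UMIs in the cell at full depth (x axis: 347, 154, 101, 146 and 144 cells); bars are exact Poisson 95% intervals of the pooled counts, blue is BMP4-zero, red BMP4-high and grey the cells between them. BDNF, AQP3 and TIMP3 are highest with 5 or more BMP4 UMIs, while HSPA5, HERPUD1 and CXCL8 are high with 0 BMP4 UMIs and low from 1 UMI on.

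Components of the BMP pathway itself did not pass the test. The 13 other BMP ligands of the list were all too low to be tested, and the most abundant, BMP8B, had 4 deposited counts in BMP4-high and 3 in BMP4-zero cells. Of 15 receptors and SMADs 3 were tested and 0 were called. The type II receptor gene BMPR2 had a log2 difference of -0.42 ± 0.31 (edgeR adjusted p = 0.738), the signal transducer SMAD5 0.06 ± 0.23 (adjusted p = 0.966), and the coreceptor endoglin, ENG, 0.54 ± 0.47 (adjusted p = 0.792).

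Of 15 antagonists 3 were tested and 0 were called. They were FST, which encodes follistatin, with a log2 difference of -0.07 ± 0.51, FSTL3, follistatin-like 3, with 0.50 ± 0.27, and NBL1 with -0.44 ± 0.25. Noggin, NOG, had 8 deposited counts in each class and was not tested. FST was uneven, at 0.151, 0, 1.69, 0.136 and 0.0227 in BMP4-high cells and 0.113, 0.242, 0.0741, 0.255 and 0.178 in BMP4-zero cells. Its highest level came from the 13 BMP4-high cells of HTO3+HTO7.

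Of 16 BMP target genes 5 were tested and 0 were called, and all 5 had log2 differences above 0 in the thinned counts, with a median of 0.42 against 0.00 over all genes tested. With counts as deposited, not thinned, ID3 was at -0.12, and ID1 and GATA2 too lay below 0 with classes set after thinning. ID1 was at 4.06, 4.26, 2.92, 5.45 and 4.57 in BMP4-high cells and at 4.13, 3.97, 2.67, 3.87 and 3.76 in BMP4-zero cells. The ID1 difference of 0.13 ± 0.10 did not pass (edgeR adjusted p = 0.766). ID3 had a log2 difference of 0.34 ± 0.28, ID2 of 0.42 ± 0.19, GATA2 of 0.58 ± 0.34 and MSX2, a homeobox gene, of 1.07 ± 0.42 (adjusted p = 0.28). MSX2 was higher in 5 of 5 hashed samples but rested on 35 thinned counts in BMP4-high and 19 in BMP4-zero cells. In 4 other hashed samples the summed level of the target list had the opposite sign, a log2 ratio of -0.07 against 0.35 in the 5.

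Among transcription factors of epithelial cells, SOX4 and ZNF703 were higher and KLF5 was lower, of 6 tested, and the other 3 (SOX9, EHF and TFAP2A) did not pass. Of all genes 0.225% were called higher and 1.19% lower. SOX4, a SOX family factor expressed in progenitor and carcinoma cells, was at 2.36, 1.90, 0.769, 1.36 and 3.09 in BMP4-high cells, against 0.981, 0.970, 0.815, 1.45 and 1.15 in BMP4-zero cells. It was higher in 3 of 5 hashed samples, and in HTO3+HTO7 and HTO4+HTO7 the 2 classes were close to each other with BMP4-high slightly lower. The log2 difference was 0.95 ± 0.16 (edgeR adjusted p = 0.000139), and 49.7% of BMP4-high and 29.7% of BMP4-zero cells had a SOX4 UMI after thinning. ZNF703, a zinc finger repressor amplified in some breast carcinomas, was at 1.38, 1.90, 0.769, 1.23 and 1.20 in BMP4-high cells, against 0.774, 0.970, 0.741, 0.596 and 0.772 in BMP4-zero cells. Its levels were higher in 5 of 5 hashed samples (log2 difference 0.73 ± 0.17, adjusted p = 0.0132). KLF5 was lower by a log2 difference of -0.72 ± 0.19 (adjusted p = 0.0394), with the opposite sign in HTO2+HTO8, and it was called in 1 of the 5 fits that left out a hashed sample.

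AQP3, a water and glycerol channel of epithelial membranes, was higher in every hashed sample. It was at 1.55, 1.03, 0.923, 1.27 and 0.977 in BMP4-high cells, against 0.660, 0.515, 0.370, 0.213 and 0.574 in BMP4-zero cells. The levels did not overlap (log2 difference 1.14 ± 0.20, edgeR adjusted p = 0.000234), and as a description of pooled cells the level was lowest with 0 and highest with 5 or more BMP4 UMIs, at 0.524, 0.753, 0.792, 1.04 and 1.43 for 0, 1, 2, 3 to 4, and 5 or more. TIMP3, a matrix-bound inhibitor of metalloproteinases, was at 0.792, 1.33, 1.23, 1.09 and 0.795 in BMP4-high cells, against 0.566, 0.515, 0.593, 0.298 and 0.535 in BMP4-zero cells. The TIMP3 levels did not overlap either (0.84 ± 0.21, adjusted p = 0.0204). TIMP3 was the only called gene among 9 tested proteases and plasminogen system genes, and its sign was reversed in the 4 other hashed samples.

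Among keratins KRT19 was higher and KRT17 lower, beside 0.225% of all genes called higher and 1.19% called lower. KRT19, an intermediate filament protein of simple epithelia, was at 16.2, 19.6, 18.8, 21.3 and 21.3 in BMP4-high cells, against 12.2, 11.5, 14.7, 18.5 and 16.4 in BMP4-zero cells. It was higher in 5 of 5 hashed samples, by a log2 difference of 0.36 ± 0.08 (edgeR adjusted p = 0.00444), and was the only called gene of 11 epithelial markers tested. KRT8, KRT18 and KRT7 had log2 differences of 0.28, 0.26 and 0.27 and did not pass. The basal keratin KRT17 was lower (-1.17 ± 0.32, adjusted p = 0.0438), 1 call among 8 tested basal and squamous genes, and was called in 1 of the 5 fits that left out a hashed sample. Of 5 tested mesenchymal genes LGALS1, which encodes galectin-1, was lower (-0.71 ± 0.11, adjusted p = 6.16e-05) and FN1, fibronectin, was lower (-0.39 ± 0.11, adjusted p = 0.0481), although each had the opposite sign in 1 hashed sample. FN1 was called in 1 of the 5 fits that left out a hashed sample, and LGALS1 in all 5.

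The remaining higher genes were smaller or rarer. FABP5, a fatty acid binding protein, had a log2 difference of 0.39 ± 0.09 (edgeR adjusted p = 0.00593) and was higher in 5 of 5 hashed samples. The kinase SLK (0.53 ± 0.14) did not overlap between the classes but was called in 1 of the 5 fits that left out a hashed sample, and ITPRID2 (0.54 ± 0.12) was higher in 5 of 5. PUSL1 (1.12 ± 0.31), FRG1 (1.38 ± 0.37), TRERF1 (1.58 ± 0.42) and IGSF9B (1.65 ± 0.44) were detected in 12.4% to 21.03% of BMP4-high cells and 4.03% to 10.95% of BMP4-zero cells, and none of these 4 was called in more than 1 of the fits that left out a hashed sample. FRG1 has near-identical copies in the genome, so its counts are uncertain. TSC22D1 (0.49) completes the 14 and was not higher in all 5 hashed samples.

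**Figure D3:**
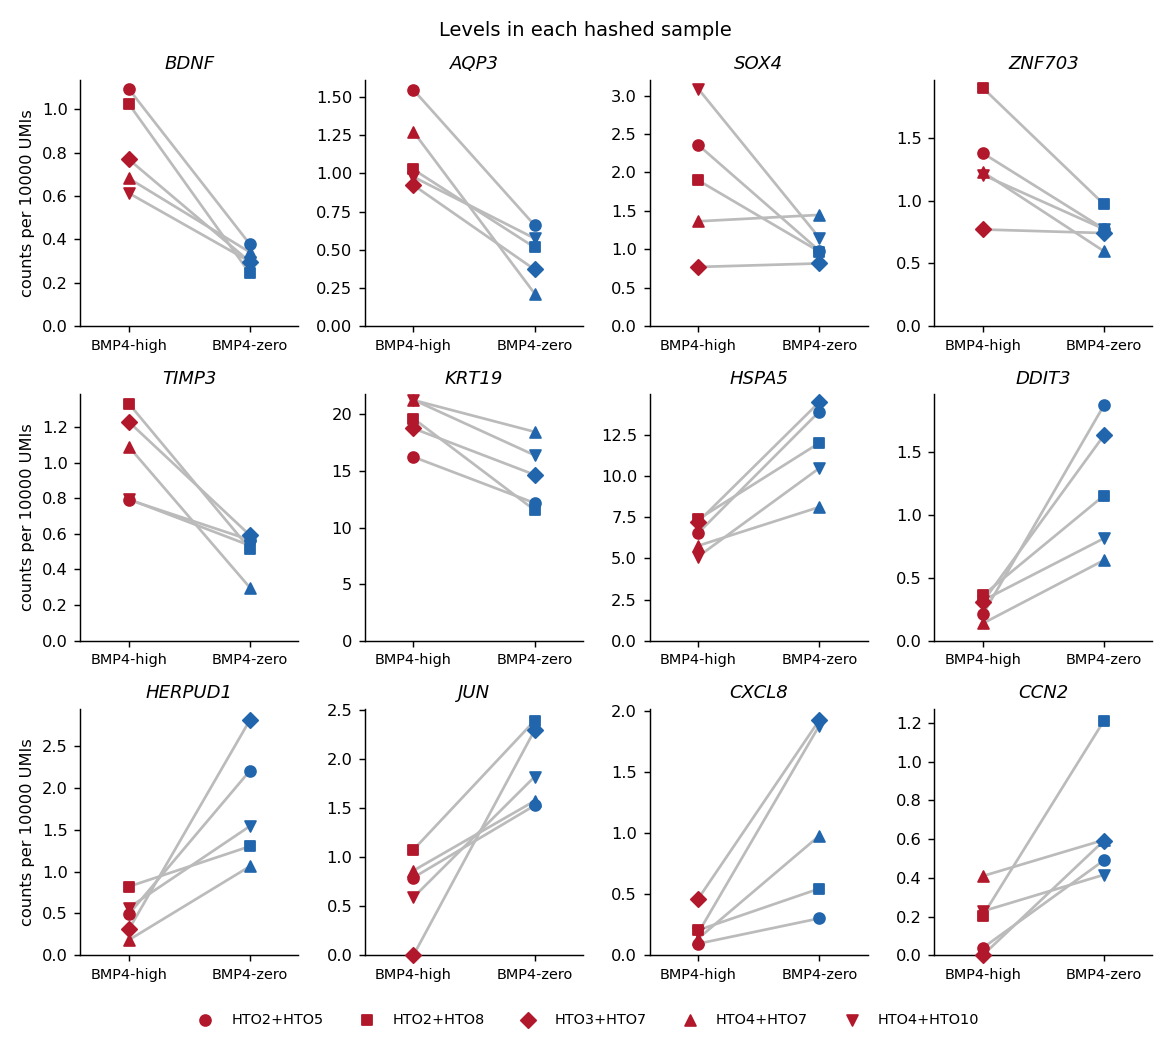
Level (counts per 10000 UMIs, cells thinned to 5000 UMIs, y axis) of 12 genes in BMP4-high (red, left) and BMP4-zero cells (blue, right) of each of the 5 hashed samples (symbols, joined by lines). BDNF, AQP3 and TIMP3 do not overlap and are higher in BMP4-high cells, SOX4 is higher in 3 of 5 hashed samples, and the 6 genes from HSPA5 to CCN2 are lower in 5 of 5.

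Genes of the unfolded protein and amino acid stress responses were the list with the most calls, all of them lower. The unfolded protein response raises chaperones and degradation factors of the endoplasmic reticulum when misfolded protein builds up there, and a shared arm through the kinases of eIF2alpha raises ATF4 and its targets. Of 14 genes listed 9 were tested, 7 were lower and 0 higher, with a median log2 difference of -0.98, beside 1.19% of all genes called lower. The list summed to 8.86 to 11.9 per 10000 UMIs in BMP4-high cells, against 14.7 to 26.1 in BMP4-zero cells, and it was lower in 5 of 5 hashed samples.

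HSPA5, the main chaperone of the endoplasmic reticulum, was at 6.55, 7.38, 7.23, 5.77 and 5.11 in BMP4-high cells, against 13.9, 12.03, 14.5, 8.13 and 10.5 in BMP4-zero cells. Every BMP4-high level lay below every BMP4-zero level (log2 difference -0.96 ± 0.09, edgeR adjusted p = 1.2e-10). HERPUD1, a membrane protein of degradation at the reticulum, was at 0.491, 0.821, 0.308, 0.182 and 0.568 in BMP4-high cells, against 2.21, 1.30, 2.81, 1.06 and 1.54 in BMP4-zero cells. Its classes did not overlap either (-1.82 ± 0.20, adjusted p = 5.58e-09). DDIT3, the pro-apoptotic factor CHOP, was at 0.208, 0.359, 0.308, 0.136 and 0.318 in BMP4-high cells, against 1.87, 1.15, 1.63, 0.638 and 0.812 in BMP4-zero cells. Again the levels did not overlap (-2.30 ± 0.24, adjusted p = 2.05e-09).

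DNAJB9, a cochaperone of HSPA5, had a log2 difference of -2.22 ± 0.31 and TRIB3, a pseudokinase induced by ATF4, of -1.88 ± 0.44. DDIT4, an inhibitor of the kinase complex mTORC1, fell by 0.98 on the log2 scale, and SLC7A11, the cystine transporter, by 0.90. ATF4 (-0.52, edgeR adjusted p = 0.0804) and XBP1 (-0.17, adjusted p = 0.869) did not pass. PPP1R15A, which restores translation by directing a phosphatase to eIF2alpha, is not on the list and was lower by -1.93 ± 0.29 (adjusted p = 1.17e-05), without overlap. Other chaperones and partners, named here after their values were seen, were lower as well, HSP90B1 by -0.81 ± 0.08, MANF by -0.87 ± 0.12, SDF2L1 by -0.64 ± 0.16, DNAJB11 by -0.57 ± 0.15 and CRELD2 by -0.48 ± 0.12. HSP90B1 and MANF were called in all 5 fits that left out a hashed sample, CRELD2 in 2, and SDF2L1 and DNAJB11 in 1 each. In 4 other hashed samples CRELD2 was at -0.02 and SDF2L1 at -0.27, and neither was called.

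The difference lay mainly in the upper tail of the BMP4-zero cells. The median cell had 4 counts of the list per 5000 UMIs in the BMP4-high class and 6 in the BMP4-zero class, and the 90th percentile was 10 counts in BMP4-high and 27 in BMP4-zero cells. Of BMP4-high cells 2.07% had more than 17 counts, the 90th percentile of both classes together, against 15.9% of BMP4-zero cells. The share was lower in BMP4-high cells in 4 of 5 hashed samples, and in HTO4+HTO7 it was 2.27% of BMP4-high and 2.13% of BMP4-zero cells. Cells with 1 or 2 BMP4 UMIs resembled the BMP4-high class: the list was at 21.3 in cells with 0 BMP4 UMIs, 12.8 with 1, 11.7 with 2, 10.8 with 3 or 4, and 10.6 with 5 or more.

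Without the cells in the top 20% of summed unfolded protein, amino acid stress and heat shock counts, 13.4% of BMP4-high and 27.1% of BMP4-zero cells, 10 genes were higher and 44 lower. This removal selects on the same genes and was added after the data were seen. HSPA5 then had a log2 difference of -0.33 (edgeR adjusted p = 0.096), DDIT3 of -0.85 (adjusted p = 0.365) and HERPUD1 of -0.28 (adjusted p = 0.881). SOX4 (0.90), AQP3 (0.87), ZNF703 (0.75) and TIMP3 (0.90) stayed past the threshold there, with JUN (-1.20) and CXCL8 (-2.82). KRT19 (0.24, adjusted p = 0.144), KLF5 (-0.39, adjusted p = 0.662), KLF6 (-0.45, adjusted p = 0.463), KRT17 (-1.03, adjusted p = 0.206) and VEGFA (-0.79, adjusted p = 0.0928) did not pass there. Of the 14 higher genes 13 were tested there and 8 called again, and of the 74 lower genes 65 were tested and 32 called again. The part of stressed cells in the other differences was not tested further.

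The 250 bases upstream of RefSeq gene starts are shown for the 5 lower genes whose window holds an endoplasmic reticulum stress element. The motif searched was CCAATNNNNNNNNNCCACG (ERSE) and, as a second form, ATTGGNCCACG (ERSE-II), both on either strand. As background, these are known sites of the unfolded protein response factors ATF6 and XBP1 acting with NF-Y. The ERSE was found upstream of HSPA5, HSP90B1 and CRELD2 and the ERSE-II upstream of HERPUD1 and SDF2L1, in 58 lower genes with a window among the 74. Over all 35116 windows the ERSE was in 0.0740% and the ERSE-II in 0.0513%, and neither was in the 9 higher genes with a window. A match is a run of letters and no evidence of binding. Sequences run 5′ to 3′ on the strand of the gene (RefSeq, GRCh38.p14), with the matched run in capitals.
HSPA5, chr9:125241344-125241593, minus strand: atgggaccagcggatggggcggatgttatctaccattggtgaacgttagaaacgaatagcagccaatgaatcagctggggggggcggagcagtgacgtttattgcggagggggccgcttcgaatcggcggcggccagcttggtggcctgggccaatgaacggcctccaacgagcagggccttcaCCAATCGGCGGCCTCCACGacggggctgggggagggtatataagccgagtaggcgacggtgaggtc
HSP90B1, chr12:103930160-103930409, plus strand, with 2 matches: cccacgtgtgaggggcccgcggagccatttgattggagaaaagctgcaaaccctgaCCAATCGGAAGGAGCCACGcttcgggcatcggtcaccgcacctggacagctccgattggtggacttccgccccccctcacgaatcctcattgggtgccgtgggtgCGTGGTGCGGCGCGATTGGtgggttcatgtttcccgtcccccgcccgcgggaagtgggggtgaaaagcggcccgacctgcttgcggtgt
CRELD2, chr22:49918384-49918633, plus strand: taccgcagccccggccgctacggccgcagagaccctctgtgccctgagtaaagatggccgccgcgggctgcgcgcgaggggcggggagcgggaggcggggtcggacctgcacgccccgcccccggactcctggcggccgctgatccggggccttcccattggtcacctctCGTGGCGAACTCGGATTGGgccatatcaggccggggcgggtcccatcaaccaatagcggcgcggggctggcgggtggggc
HERPUD1, chr16:56931892-56932141, plus strand: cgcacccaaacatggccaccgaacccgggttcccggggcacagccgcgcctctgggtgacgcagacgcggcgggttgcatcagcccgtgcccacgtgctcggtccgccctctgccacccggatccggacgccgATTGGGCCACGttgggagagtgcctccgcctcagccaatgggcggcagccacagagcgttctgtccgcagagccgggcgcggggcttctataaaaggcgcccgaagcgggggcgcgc
SDF2L1, chr22:21642052-21642301, plus strand: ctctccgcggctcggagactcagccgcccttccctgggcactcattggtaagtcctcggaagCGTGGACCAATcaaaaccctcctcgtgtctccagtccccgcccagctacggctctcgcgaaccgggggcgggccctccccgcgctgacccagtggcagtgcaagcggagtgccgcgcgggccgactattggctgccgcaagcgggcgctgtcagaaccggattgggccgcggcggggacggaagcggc

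Immediate early genes, which respond within minutes to growth factors and stress, were lower where they changed. Of 13 tested 4 were lower and 0 higher, with a median log2 difference of -0.36, beside 1.19% of all genes called lower. JUN, a subunit of the AP-1 factor, was at 0.792, 1.08, 0, 0.864 and 0.591 in BMP4-high cells, against 1.53, 2.39, 2.30, 1.57 and 1.82 in BMP4-zero cells. The classes did not overlap (-1.34 ± 0.18, edgeR adjusted p = 2.06e-06), and JUN was highest with 0 and lowest with 5 or more BMP4 UMIs, at 1.84, 1.30, 0.931, 1.00 and 0.486 for 0, 1, 2, 3 to 4, and 5 or more. ATF3, a factor of the stress response, rested on few cells: 1.38% of BMP4-high and 5.19% of BMP4-zero cells had a UMI, and 3 of the 5 BMP4-high sums were at 0, so its fitted log2 difference is not given as a size. The phosphatase gene DUSP1 (-1.58 ± 0.40) and KLF6 (-0.69 ± 0.18) were the others called. DUSP1 was called in 3 and KLF6 in only 1 of the 5 fits that left out a hashed sample.

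Growth factor and matrix genes were lower in single members of their lists, beside 1.19% of all genes called lower. CCN2, a secreted matricellular protein and target of TGF-beta and YAP, was at 0.0377, 0.205, 0, 0.409 and 0.227 in BMP4-high cells, against 0.491, 1.21, 0.593, 0.596 and 0.416 in BMP4-zero cells. The levels did not overlap (-1.82 ± 0.32, edgeR adjusted p = 0.000278), while the other 9 TGF-beta target genes and the other 7 YAP target genes tested did not pass. HBEGF, an EGF receptor ligand, was lower in 5 of 5 (-1.63 ± 0.28, adjusted p = 0.000126), 1 call of 5 tested in the EGF family. With cells matched on depth HBEGF was at -1.12 and not called (adjusted p = 0.0762). VEGFA (-0.90 ± 0.21, adjusted p = 0.0127), the vascular growth factor, was 1 call of 6 tested other growth factors. VEGFA and NDRG1 (-1.07 ± 0.23), a gene induced by hypoxia, were the 2 calls among 12 tested hypoxia and glycolysis genes. DUSP5 (-1.45 ± 0.38) was the only call of 10 genes of MAPK pathway output, and it was called in 2 of the 5 fits that left out a hashed sample.

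Among heat shock genes the inducible HSP70 genes were lower, beside 1.19% of all genes called lower. HSPA1A (-1.52 ± 0.24, edgeR adjusted p = 3.06e-05) and HSPA1B (-1.84 ± 0.44, adjusted p = 0.0153) passed, and the other 8 heat shock proteins tested did not pass. Both had the opposite sign in HTO3+HTO7, where HSPA1A was at 1.54 in BMP4-high and 0.889 in BMP4-zero cells. Without the most stressed cells HSPA1A had a log2 difference of -0.07 (adjusted p = 0.984). These 2 genes are near-identical copies, so reads may have been split between them. The summed heat shock list did not differ between the classes beyond its spread, at 46.7 to 63.5 in BMP4-high cells and 48.3 to 61.6 in BMP4-zero cells. GADD45A (-1.97 ± 0.27), G0S2 (-1.71 ± 0.22), MBNL2 (-1.59 ± 0.36) and GEM (-1.81 ± 0.48) were lower in 5 of 5 hashed samples. GEM rested on 60 thinned counts. It was tested in 2 of the fits that left out a hashed sample and called in 0. GADD45A binds cell cycle and stress kinases, G0S2 inhibits a triglyceride lipase, MBNL2 is a splicing factor and GEM is a small GTP-binding protein.

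Cytokine response genes were looked at as well, since the pool also held stimulated cells. Whether such cells entered either class was not tested. Of 11 tested TNF and NF-kB targets 3 were lower, 0 were higher, and the median log2 difference was -0.56, beside 1.19% of all genes called lower. CXCL8, the chemokine interleukin-8, was at 0.0943, 0.205, 0.462, 0.136 and 0.182 in BMP4-high cells, against 0.302, 0.545, 1.93, 0.979 and 1.88 in BMP4-zero cells. It was lower in 5 of 5 hashed samples (-2.65 ± 0.27, edgeR adjusted p = 1.3e-09), with 6.55% of BMP4-high and 15.6% of BMP4-zero cells holding a UMI. NFKBIA, the inhibitor of NF-kB, was lower by -0.74 ± 0.16 (adjusted p = 0.00429) and SOD2, mitochondrial superoxide dismutase, by -0.56 ± 0.14 (adjusted p = 0.0262), a call kept in 1 of the 5 fits that left out a hashed sample. ICAM1 (-0.61), IL32 (-0.76), BIRC3 (-0.50) and NFKB1 (-0.83) did not pass. LCN2 (0.18) and IER3 (0.11), the tested members with the most counts, had the opposite sign and did not pass either. The summed list was at 17.1 to 27.5 in BMP4-high cells and 17.3 to 29.4 in BMP4-zero cells, a log2 ratio of -0.10.

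None of 9 tested IFN-gamma targets was called, and the IFN-gamma list summed to 5.23 to 8.00 in BMP4-high cells, against 4.15 to 7.86 in BMP4-zero cells. Its median log2 difference per gene was -0.22, while the log2 ratio of the summed list was -0.01 to 0.33 over the hashed samples. IFIT2, an interferon-induced gene outside the IFN-gamma list, was called lower (-2.34, edgeR adjusted p = 0.00533). In the 4 other hashed samples IFIT2 was at 0.32 and not called. Over all cells of single hashed samples, at full depth, that list ranged from 4.85 to 7.79 in the 5 used here, and 5 of the 10 others stood at 184 to 280. The TNF and NF-kB list ranged from 17.6 to 29.1 in the 5 and from 78.0 to 141 in the 10 others, which is how the 5 had been picked and no result. With cells kept only where the second hashtag had at least 10 times the counts of the third, CXCL8 had a log2 difference of -2.70 and HSPA5 of -0.97. That filter kept most cells, such as 103 of 106 BMP4-zero cells in HTO2+HTO5, so it could change little. Notch pathway genes (4 tested), Wnt targets (1) and p53 targets (6) had 0 calls each.

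**Figure D4:**
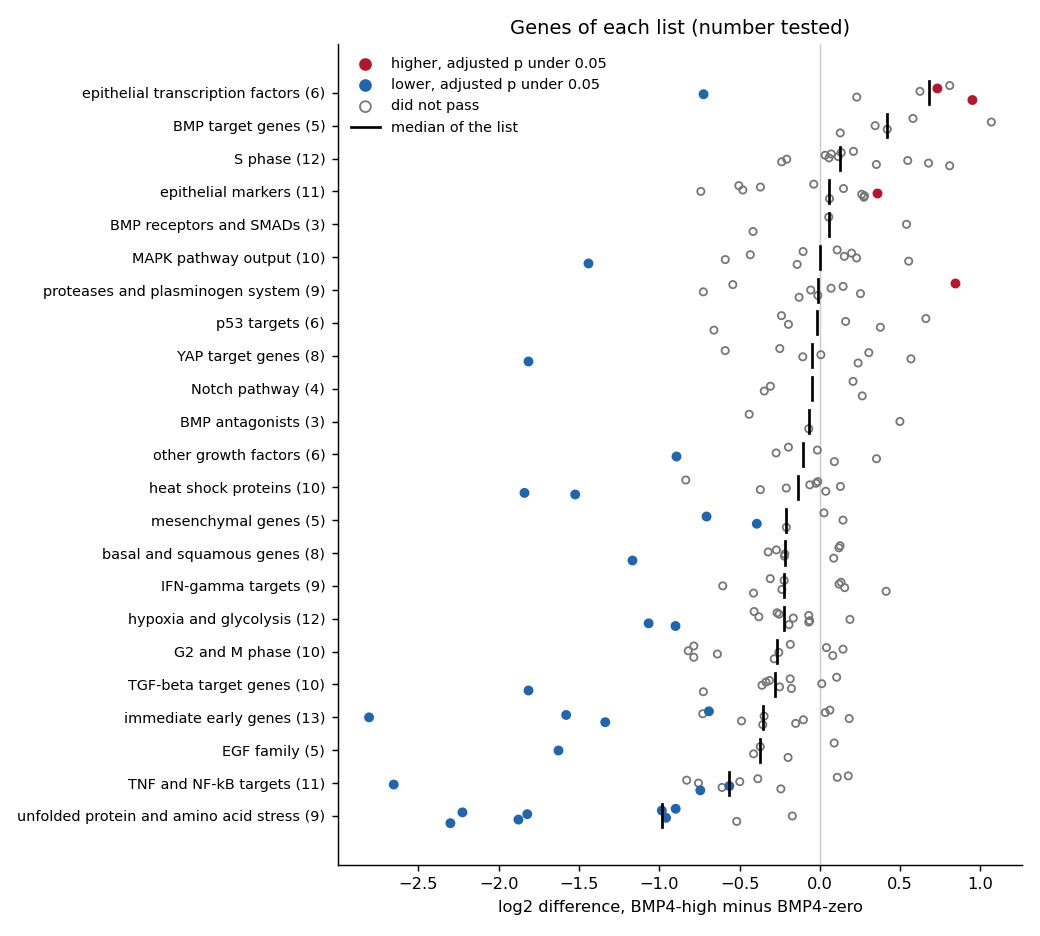
Log2 difference, BMP4-high minus BMP4-zero (x axis), of each tested gene of 23 gene lists with at least 3 genes tested (rows, with the number tested); red and blue points passed at an adjusted p under 0.05, open points did not, and the black bar is the list's median. The list of unfolded protein and amino acid stress genes has 7 of 9 genes lower and a median of -0.98, and all 5 BMP target genes tested lie above 0 in these thinned counts without a call (ID3 was at -0.12 in counts not thinned).

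The comparison was repeated in 4 other hashed samples with at least 10 BMP4-high cells each, which the rule had not used. They were HTO2+HTO10, HTO2+HTO6, HTO3+HTO8 and HTO4+HTO8, with 13, 34, 48 and 13 BMP4-high cells, and they too lack a condition label. This comparison was added after the data were seen. There 0.297% of 6739 genes tested were higher and 0.638% were lower. Of the 14 higher genes 12 were tested, 10 had the same sign, and SOX4 (1.16), ZNF703 (1.31) and FABP5 (0.34) were called. Of the 74 lower genes 71 had the same sign and 20 were called, among them HSPA5 (-0.71), DDIT3 (-1.65), HERPUD1 (-1.26), JUN (-1.03), G0S2 (-1.09) and LGALS1 (-0.74). The share of all genes with the same sign in both sets is not given. BDNF had a log2 difference of 0.77 there, smaller than 1.35, and CXCL8 one of -0.49 against -2.65. Whether these sizes differ between the 2 sets of hashed samples was not tested.

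**Figure D5:**
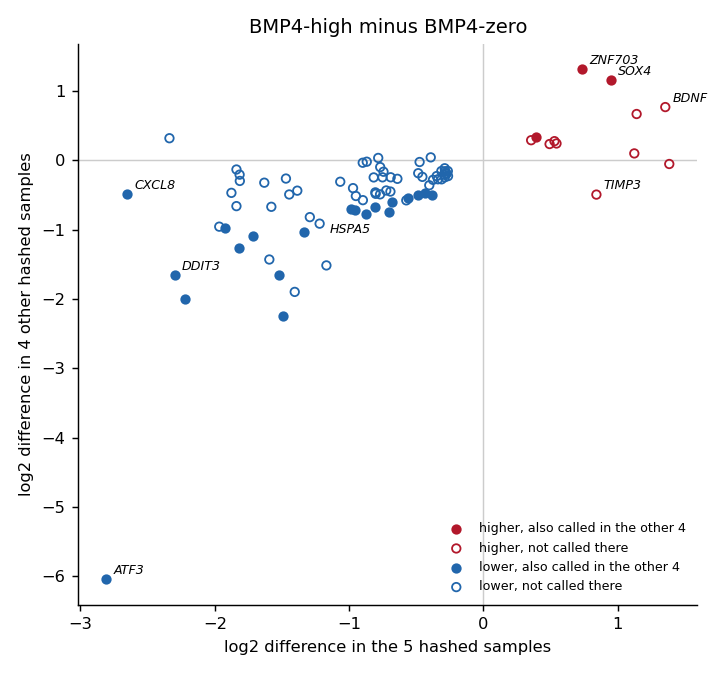
Log2 difference, BMP4-high minus BMP4-zero, of 86 called genes in the 5 hashed samples (x axis) and in the 4 other hashed samples (y axis); red genes were higher and blue lower in the 5, filled points were also called in the other 4. Of the genes plotted, 10 of 12 higher and 71 of 74 lower genes keep their sign; ATF3, which had few counts, lies at the bottom.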

How the data were processed

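The deposited matrix holds counts of UMIs per gene and per hashtag for each cell barcode. Per the submitters' processing notes it was made with Cell Ranger 2.1.1 on GRCh38, while the file header names version 5.0.1, and the settings for strand and multimapping reads are not given in the sources used here. From these counts, cells were filtered (at least 1000 genes, 5000 UMIs, at most 20% mitochondrial UMIs). A cell's pair was its 2 highest hashtags, accepted where the lower of them had 10 or more counts and 3 or more times those of the next hashtag. Members had at least 3 BMP4 UMIs before thinning. The cells, members, gene lists and tests were chosen with earlier results of these data known.

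Cells were thinned to 5000 UMIs (BMP4-high cells had 5624 to 36220), and summed per hashed sample and class (65000 to 530000 UMIs per sum). Genes with a total of at least 50 were tested with edgeR 4.0.16 (quasi-likelihood, TMM, hashed sample as a block, R 4.3.3) and Benjamini-Hochberg adjustment. SE is the log2 difference divided by the square root of F. The script was tested on simulated data. Low genes pass the filter through either class, so genes not tested are not shown to be alike. Named genes are the 12 called genes with the largest difference in each direction among those with the same sign in 5 of 5 hashed samples, tested BMP pathway genes, and up to 4 called genes of each other list. DDIT4, SLC7A11, TSC22D1, IFIT2, the further chaperones and the genes of the closing section were named after their values were seen. DESeq2 1.42.0 was an alternative. No deposited annotation of cells was used.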

Additional observations from a re-analysis of the deposited data

Results flagged for a closer look

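Among 44 values looked at over the 5 hashed samples, 3 had a sample far from the other 4 by Dixon's test, and chance flags about 1 in 20. All 3 were HTO3+HTO7, which had the fewest cells (13 BMP4-high and 27 BMP4-zero). Its log2 ratio of BMP4-high to BMP4-zero cells was 0.31 for the summed other growth factors, against -0.24 to -0.09 in the other hashed samples. For the IFN-gamma targets it was 0.33, against -0.01 to 0.06. For the p53 targets it was 1.17, against -0.10 to 0.23. Without HTO3+HTO7, 16 genes were higher and 67 lower in BMP4-high cells.

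BMP4 also appeared in cells that entered no comparison. Of 341 cells that passed the filters without a clear hashtag pair, 67 (19.6%) had at least 3 BMP4 UMIs, at a median depth of 14971 UMIs. These cells have no hashed sample and were set against no other group.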

How the results depend on the processing

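The 52 called genes named in the text besides BDNF and IFIT2 were refitted under up to 26 other settings each, 1272 comparisons in all. The call was kept in 916, lost with the sign kept in 352, and the sign was reversed in 4: FRG1 (-0.051), TIMP3 (-0.49) and FN1 (0.044) in the 4 other hashed samples, and HMOX1 (0.26) without the most stressed cells. The number of genes higher and lower in BMP4-high cells was 14 and 74. Genes higher numbered 37 with counts not thinned, 26 from at least 2 BMP4 UMIs, 25 without mitochondrial genes, 22 without the deepest cells, 30 without scaling and 28 with a gene total of at least 200. They numbered 9 with classes set after thinning, 7 against cells with 0 to 2 BMP4 UMIs, 1 at 10% mitochondrial UMIs, 1 with DESeq2 and 3 with no block for the hashed sample. Genes lower numbered 33, 41, 4, 17 and 29 under these last 5 settings, 46 without scaling, 44 without the most stressed cells and 43 in the 4 other hashed samples. With 1 hashed sample left out the counts were 5 to 16 higher and 33 to 72 lower. The lowest came without HTO2+HTO8 (5 higher) and without HTO4+HTO10 (33 lower), and without HTO2+HTO5 or HTO2+HTO8 there were 44 and 39 lower. With cells matched on depth before thinning, some named genes kept their sign but were not called. Among them were HBEGF, NFKBIA, KLF6 and DUSP5 (edgeR adjusted p = 0.0762 each), DUSP1 (adjusted p = 0.317) and FN1 (adjusted p = 0.534). Fewer cells, samples or genes enter several of these fits. Another seed of the thinning gave 19 and 71, of which 8 and 56 were among the same genes, so single calls near the threshold depend on the draw.

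BDNF kept its sign under every setting that tested it, with log2 differences of 0.77 in the 4 other hashed samples to 1.65 with another seed, and 1.23 to 1.49 with 1 hashed sample left out. The number of BMP4-high cells was 144 at 5 BMP4 UMIs and 54 at 10% mitochondrial UMIs. The BMP4 ratio in held-out molecules had a median of 6.14, and of 5.45, 5.96 and 4.74 under its alternatives (fewer UMIs asked for, another split, and both together, the last added after the data were seen). The summed unfolded protein and amino acid stress list kept its sign in 19 settings, with log2 ratios of -1.09 to -0.27, the smallest at 10% mitochondrial UMIs. The smallest sum of the main fit held 13 cells, the BMP4-high cells of HTO3+HTO7. That sum held 8 cells at 5 BMP4 UMIs and 1 cell at 10% mitochondrial UMIs. Such small sums limit what could be detected in genes of low counts. No analysis paired by label numbers was possible because the labels number no hashed sample; the fit with each hashed sample as a block is the one reported.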

Other observations

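Genes of protein synthesis and of iron storage were picked here after their values were seen and are given without a test of the group. Of 82 cytosolic ribosomal protein genes tested, 80 had log2 differences below 0, with a median of -0.20, and 7 were called lower and 0 higher. Of all genes tested 1.19% were called lower and 0.225% higher, and their median log2 difference was -0.0004. The share of all genes below 0 is not given. Without scaling beyond library size the median was -0.13 and 0 were called, and without the most stressed cells it was -0.21 with 13 called lower. In the 4 other hashed samples 78 of 82 were below 0. The elongation factor gene EEF1A1 was at 24.1 to 28.3 counts per 10000 UMIs in BMP4-high cells, against 27.1 to 33.7 in BMP4-zero cells (-0.29 ± 0.07, edgeR adjusted p = 0.0173). Many of these genes have processed pseudogenes, so their counts are uncertain.

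Both ferritin chains were lower in 5 of 5 hashed samples. FTH1, the heavy chain, was at 105, 104, 60.3, 107 and 76.1 in BMP4-high cells, against 124, 140, 99.8, 122 and 112 in BMP4-zero cells (-0.49 ± 0.07, edgeR adjusted p = 2.06e-06), and FTL differed by -0.38 ± 0.07. The haem oxygenase gene HMOX1 was lower too (-1.49 ± 0.20, adjusted p = 1.35e-06), at 0.509, 0.718, 0, 0.0909 and 0.614 in BMP4-high cells, against 1.53, 1.79, 0.519, 0.170 and 1.52 in BMP4-zero cells. Without the most stressed cells the HMOX1 difference was 0.26 and not called. FTH1 and FTL were also called lower in the 4 other hashed samples.

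Genes of the mitochondrial genome, 13 tested, had a median of -0.11 and 0 calls.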
